A study of Mus musculus with 12 samples.

Results

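The collagen chain genes were examined in sorted sensory neurons of the mouse dorsal root ganglion (DRG). Members were all genes of the deposited tables whose symbol was Col, a type number, the letter a and a chain number. This gave 44 of the 41388 genes, of which 26 had enough counts to be tested. C57BL/6 mice aged 3 months carried a floxed Ret allele that switches to EGFP after excision by Cre, together with Cre in the NaV1.8 gene Scn10a, and every group shared this genotype, with Ret knocked in on one allele. EGFP therefore marked cells with an active Ret locus in which the NaV1.8 gene had been active, and these cells were isolated by fluorescence sorting. Ganglia came from lumbar levels L3, L4 and L5 (L345) or from L6 and S1 (L6S1), from males or from females, and each of the 4 groups had 3 libraries, each from a pool of 2 to 8 mice. The labels name no other treatment, and whether pools of both levels shared mice is not given in the labels.

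Collagens are the main structural proteins of the extracellular matrix. Their chains wind around each other into a helix, and the chains that join decide whether the product builds fibrils, the sheet of a basement membrane or a smaller network, or stays in the cell membrane. In ganglia and nerves most fibrillar collagen is made by fibroblasts of the connective tissue, while Schwann cells and satellite glia, which wrap axons and neuronal cell bodies, lie on a basement membrane that contains type IV collagen. Sorted neurons were therefore examined for which chains they carried, how much, and whether L6S1 differed from L345.

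Total counts ran from 16176436 to 26694404 per library. Scn10a averaged 501 ± 109 CPM (SD, n = 12) and Ret 171 ± 29.8 CPM, and all 10 nociceptor markers examined had counts in all 12 libraries. Levels are given as CPM, the count relative to the library's total after TMM scaling, or, between genes, as RPKM, the same value per kilobase of annotated exon. Glial transcripts were present as well, with Pmp22 at 2698 ± 508 CPM and Apoe at 942 ± 372 CPM. Female L6S1 C stood apart in several connective tissue and immune transcripts, described beside the results it touches. Female L345 D, male L6S1 C, female L6S1 B and female L6S1 C were submitted later than the other 8.

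The promoters of a pair of members are shown first, Col24a1 because it was the one collagen gene called between the levels, and Col28a1 because it was the most abundant. Both are RefSeq sequences of GRCm38.p6, 5′ to 3′, each with the 250 bases before the annotated transcription start and the first 10 bases from the start on, at chr3:145292222-145292481 on the plus strand and chr6:8192608-8192867 on the minus strand. Capitals mark TGACGTCA, the palindrome known as the cyclic AMP response element, which begins 7 bases before the start of Col24a1.
Col24a1: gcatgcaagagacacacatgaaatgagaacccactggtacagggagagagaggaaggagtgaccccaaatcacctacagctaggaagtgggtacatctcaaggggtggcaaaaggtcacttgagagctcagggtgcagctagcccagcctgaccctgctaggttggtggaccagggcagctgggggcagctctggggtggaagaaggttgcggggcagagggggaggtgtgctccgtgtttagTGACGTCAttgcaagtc
Col28a1: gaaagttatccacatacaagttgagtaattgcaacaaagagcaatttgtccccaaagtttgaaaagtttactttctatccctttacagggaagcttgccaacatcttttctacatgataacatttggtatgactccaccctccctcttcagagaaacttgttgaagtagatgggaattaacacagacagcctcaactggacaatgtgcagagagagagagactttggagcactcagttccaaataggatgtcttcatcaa
Windows of 250 bases before to 50 after the start were available for 35 of the 44 collagen genes and for 27025 genes in all, and motifs were searched on both strands. TGACGTCA was found in 1 of the 35 collagen windows, that of Col24a1, against 1.88% of all windows. TATAAA was found in 5 collagen windows (14.3%; 14.2% of all), CCAAT in 12 (34.3%; 37.9% of all) and GGGCGG in 22 (62.9%; 35.9% of all). These matches describe the letters of the windows and no binding was measured.

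Collagen transcripts were scarce in the sorted neurons. All 44 genes together took 43.7 to 63.8 CPM of a library's own total in 11 libraries and 78.6 (exact 95% binomial interval 75.2 to 82.2, counting error only) in female L6S1 C. Between 35 and 41 of the genes had a count in any one library. With the exon lengths of the deposited tables, the level per length averaged at least 1 RPKM for 1 gene, Col28a1, and lay under 0.1 RPKM for 25 genes. Counts reached 10 or more in every library for 16 genes.

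Col28a1, a chain with von Willebrand factor domains known mainly from peripheral nerve and ganglia, was the most abundant member. It averaged 2.25 ± 0.429 RPKM (SD, n = 12) and lay above the next gene, Col23a1, in 12 of 12 libraries. Its counts were 280, 215 and 201 in male L345, 426, 278 and 275 in female L345, 304, 204 and 288 in male L6S1, and 171, 217 and 273 in female L6S1. Female L345 B was the highest library, and the values of the 4 groups overlapped. Together with Col1a2 and Col23a1 it held 33.0% to 44.4% of all collagen counts of a library.

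Col23a1, a transmembrane collagen, followed at 0.829 ± 0.179 RPKM and lay above Col18a1 in 11 of 12 libraries. Col18a1, the basement membrane chain whose end fragment is endostatin, averaged 0.648 ± 0.147 RPKM. Col1a2, which with Col1a1 forms type I collagen, averaged 0.611 ± 0.256 RPKM, and Col18a1 was above it in 7 of 12 libraries. Col1a2 has 12136 annotated exon bases against 5348 in its longest transcript. Over the shorter length its level would be higher, so its rank rests on the length used. The next levels were 0.457 for Col5a3, a minor chain of type V fibrils, 0.446 for Col4a1, the common type IV chain of basement membranes, and 0.433 for Col10a1, the network-forming chain best known from growth cartilage. Neighbours in this stretch changed places between libraries, since each was above the next in 6 to 8 of 12.

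Below them lay Col8a1, a network-forming chain, at 0.348 RPKM, and Col14a1, which attaches to the surface of fibrils, at 0.242 RPKM. Col3a1, the type III chain, averaged 0.213 RPKM, Col5a2 0.203 RPKM, Col6a2, a chain of beaded filaments, 0.191 RPKM, and Col24a1 0.187 RPKM. The plot of levels per length shows how widely single libraries spread around these means. Transcripts of other cells carried through the sort cannot be told apart from those of the neurons in these bulk libraries.

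**Figure D1:**
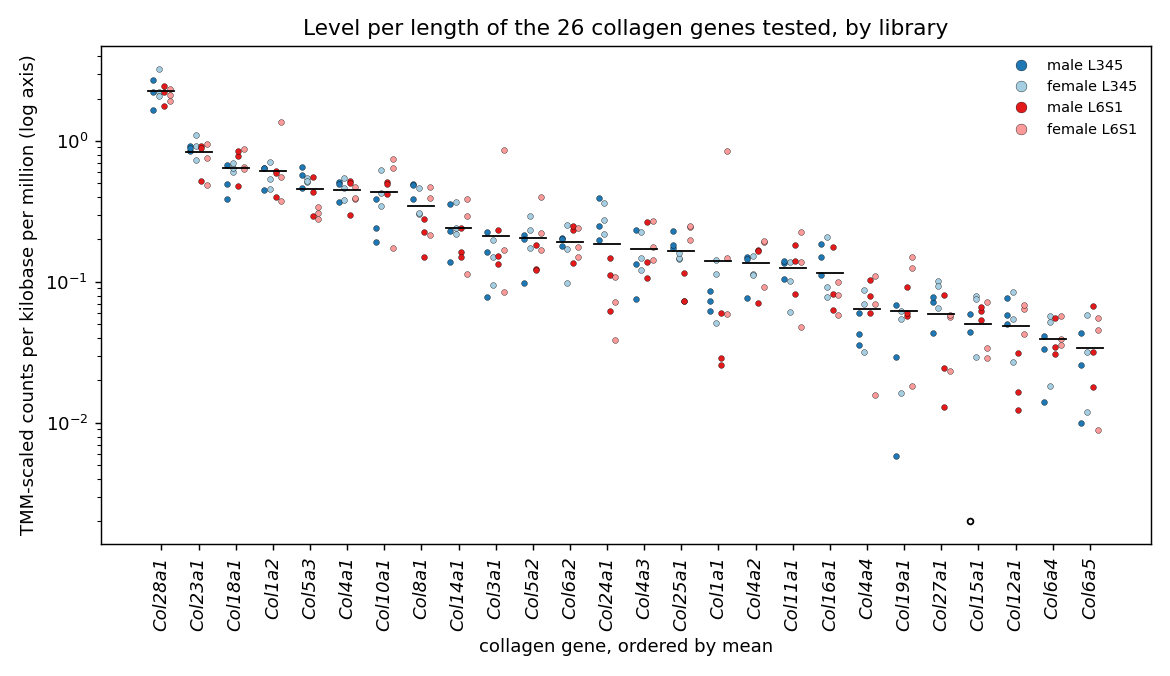
Level per length (TMM-scaled RPKM, log axis) of the 26 tested collagen genes in each of the 12 libraries, coloured by group, with a bar at the mean. The open point at the bottom for Col15a1 is a library with 0 counts, and the highest points of Col1a1, Col1a2, Col3a1 and Col5a2 are all female L6S1 C.

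The 18 genes left out of the test for low counts were Col2a1, Col4a5, Col4a6, Col5a1, Col6a1, Col6a3, Col6a6, Col7a1, Col8a2, Col9a1, Col9a2, Col9a3, Col11a2, Col13a1, Col17a1, Col20a1, Col22a1 and Col26a1. Their mean levels were at most 0.215 CPM. Col4a6, Col9a1, Col13a1 and Col22a1 had at most 3 counts in any library, which is the limit that a count of 0 allows. The chains of cartilage type II and type IX fibrils, Col2a1, Col9a1, Col9a2 and Col9a3, had at most 4, 1, 5 and 7 counts in a library. Col6a1, the usual partner of Col6a2, had 36 counts in female L6S1 C, 14 in female L345 B and 0 to 4 in the other 10 libraries, whereas Col6a2 had 21 to 57 counts in every library. Col6a1 is named because of these values.

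Some members share ground with other genes, and without a stated strand setting their reads cannot be assigned with certainty. All of the exon bases of Col10a1 lie inside the span of Nt5dc1 on the opposite strand, which had 84 to 194 counts against 13 to 50 for Col10a1. Of the exon bases of Col18a1, 33.5% lie inside the span of Slc19a1 on the opposite strand, which had 616 to 1829 counts against 58 to 158. Of those of Col4a3, 49.97% lie inside the span of C430014B12Rik on the opposite strand, which had 0 to 5 counts. Col4a1 and Col4a2, which start next to each other on opposite strands, share 22 exon bases.

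Between the levels, Col24a1 was the only 1 of the 26 tested collagen genes that was called, and it was lower at L6S1. Col24a1 (ENSMUSG00000028197; chromosome 3, 145292472 to 145552011, plus strand, GRCm38) encodes a fibrillar chain of the same subgroup as Col27a1, known from developing bone and cornea. Its counts were 32, 59 and 47 in male L345 and 56, 71 and 45 in female L345, against 12, 20 and 30 in male L6S1 and 9, 19 and 7 in female L6S1. In CPM the 6 L345 libraries ran from 1.51 to 2.99 with a median of 1.99, and the 6 L6S1 libraries from 0.293 to 1.13 with a median of 0.687. The levels did not overlap, and every L6S1 library lay below every L345 library.

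The log2 fold change of Col24a1 was -1.67 ± 0.31 (SE; edgeR quasi-likelihood test, Benjamini-Hochberg adjusted p = 0.0145), a level 3.18-fold lower at L6S1. In the same fit 356 of 15281 genes were called (2.33%), 222 higher (1.45%) and 134 lower (0.877%), and 1 of 26 collagen genes is 3.85%, so the share of members called is near the background. With upper-quartile scaling the calls were 412 higher and 133 lower. The levels did not overlap for 3.24% of all genes, 2.02% with L6S1 above and 1.22% with L6S1 below, and for 1 of the 26 collagen genes. Lower transcript levels can reflect fewer cells of a type or less RNA per cell, which bulk samples cannot tell apart.

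Within males the Col24a1 difference was -1.37 ± 0.42 (SE, adjusted p = 0.379, edgeR) and within females -1.96 ± 0.44 (adjusted p = 0.0825, edgeR), and the test of the difference between the sexes gave -0.59 ± 0.61 (adjusted p = 0.903, edgeR). In the 8 libraries of the first submission alone it was -1.92 (adjusted p = 0.0139, edgeR). Without female L345 C the call was lost (-1.56, adjusted p = 0.0527, edgeR). Long transcripts as a whole were lower at L6S1: across 15193 genes the level difference ran with transcript length at a Spearman rho of -0.41, given as a description across genes, and the longest decile, which holds the 7143-base Col24a1 transcript, had a median of -0.34. With offsets for GC content and length in each library, Col24a1 stood at -1.50 (adjusted p = 0.0210, edgeR).

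**Figure D2:**
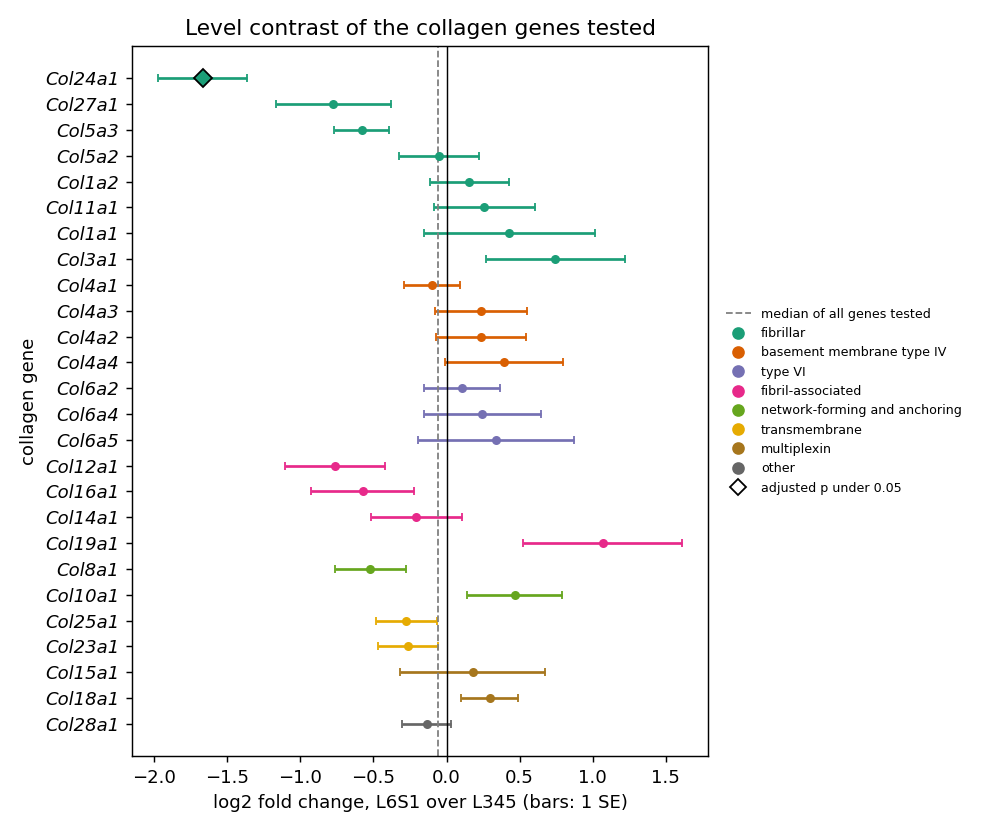
Log2 fold change of L6S1 over L345 for the 26 tested collagen genes, grouped and coloured by the assembly each chain forms, with bars of 1 SE. The diamond marks Col24a1 at -1.67, the one gene with an adjusted p under 0.05, and the dashed line marks the median of all tested genes, -0.06.

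The other 25 tested collagen genes ran from -0.77 for Col27a1 to 1.07 for Col19a1 and none passed the test, with a lowest adjusted p of 0.0907. Of the 26, 14 lay above 0 and 12 below, with a median of 0.13 against -0.06 for all genes tested. The median moved to -0.15 without female L6S1 C. Collagen transcripts are long, with a median of 6284.5 bases against 3223 for all genes tested, and 22 of the 26 fell in the longest 2 of the 10 length classes, whose medians were -0.25 and -0.34. With GC and length offsets the collagen median was 0.25.

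Of the 11 fibrillar chains, 8 were tested, 1 fell and 7 did not pass, with a class median of 0.05. Col5a3 had the lowest adjusted p after Col24a1. Its CPM ran from 3.18 to 4.41 with a median of 3.66 at L345, and from 1.89 to 3.80 with a median of 2.20 at L6S1. All 6 L6S1 values were under the mean of L345 in the same sex, and male L6S1 C reached into the L345 range, so the levels overlapped. The log2 fold change was -0.58 ± 0.19 (SE, adjusted p = 0.0907, edgeR).

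Col27a1, the closest relative of Col24a1, ran from 0.563 to 1.31 CPM with a median of 0.979 at L345 and from 0.169 to 1.05 with a median of 0.528 at L6S1. Of its L6S1 libraries 5 of 6 were under the mean of L345 in the same sex, and the levels overlapped (-0.77 ± 0.39 (SE), adjusted p = 0.221, edgeR). Col5a2 ran from 0.944 to 2.82 CPM at L345 and from 1.17 to 3.85 at L6S1, with a difference of -0.05 ± 0.27 (SE, adjusted p = 0.919, edgeR). Col11a1, the remaining tested fibrillar chain outside types I and III, differed by 0.26 ± 0.35 (SE).

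Type I and type III collagen are the bulk fibrils of connective tissue and are made together by fibroblasts. Col1a1 had 4 to 24 counts in 11 libraries and 133 in female L6S1 C. In CPM it ran from 0.334 to 0.938 at L345, and from 0.169 to 0.976 in 5 L6S1 libraries with 5.57 in female L6S1 C. Col3a1 ran from 0.761 to 2.22 CPM at L345, and from 0.826 to 2.29 in the same 5 L6S1 libraries with 8.51 in female L6S1 C. Col1a2 ran from 5.48 to 8.56 CPM at L345, and from 4.52 to 7.46 in those 5 with 16.4 in female L6S1 C.

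One library of 6 thus held the high values of all these chains at L6S1, and the other libraries of the levels overlapped. None of these chains passed the test: Col1a1 differed by 0.43 ± 0.59 (SE, adjusted p = 0.652), Col3a1 by 0.75 ± 0.47 (adjusted p = 0.316) and Col1a2 by 0.16 ± 0.27 (adjusted p = 0.726) in the edgeR fit. Without female L6S1 C the signs turned, to -0.47, -0.05 and -0.20. The plot of CPM by library shows this library above its group in the panels of these genes.

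**Figure D3:**
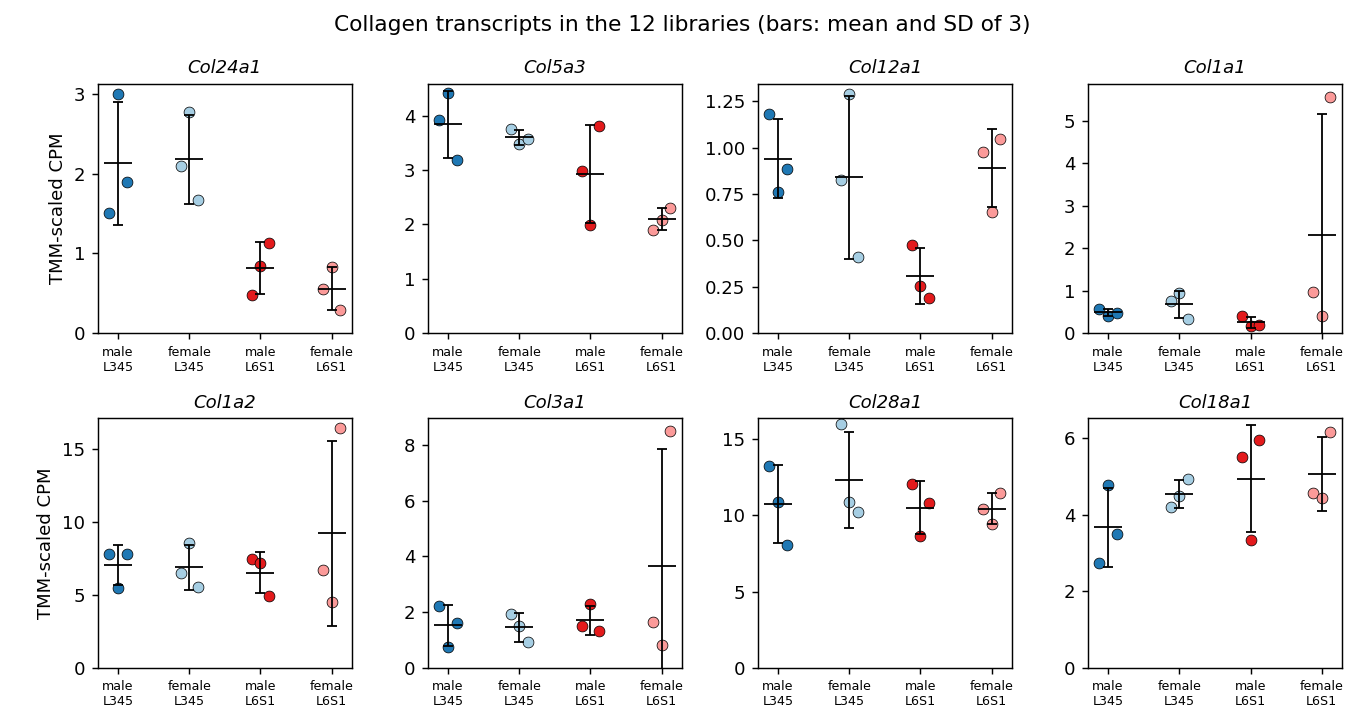
TMM-scaled CPM of 8 collagen genes in the 12 libraries by group, with bars for the mean and SD of 3 libraries and vertical axes from 0. Col24a1 is lower in all L6S1 libraries, at most 1.13 against at least 1.51, while female L6S1 C stands alone at 5.57 for Col1a1, 16.4 for Col1a2 and 8.51 for Col3a1.

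Both type I chains are needed in a fixed proportion in the protein, with more of the Col1a1 product than of the Col1a2 product. In counts Col1a1 was the lower of both in every library: it made up 2.30% to 12.7% of the summed counts of both genes in 11 libraries and 25.3% (exact 95% binomial interval 21.7 to 29.3, counting error only) in female L6S1 C. The interval of female L6S1 C did not reach the interval of any other library, of which the highest upper bound was 19.8. The deposited tables give Col1a2 an exon length of 12136 bases, against 5348 for its longest annotated transcript, and Col1a1 6563 against 5930. Per exon length the ratio of Col1a1 to Col1a2 ran from 0.0435 in male L6S1 B to 0.627 in female L6S1 C. Per transcript length it ran from 0.0212 to 0.306 in the same libraries, so Col1a1 was the lower with either length.

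Fibroblast transcripts in the same libraries were compared through 11 markers that are not collagens. Of the 7 tested, 1 rose at L6S1, Dcn, which encodes the proteoglycan decorin (1.67 ± 0.14 (SE), adjusted p = 1.91e-05, edgeR). DESeq2 and limma-voom each called Dcn, Ly6a and Gsn higher, where they called 9.93% and 21.4% of all genes by level. Dcn ran from 57.6 to 82.8 CPM at L345 and from 112 to 283 at L6S1, and all markers together summed to 179 to 227 CPM at L345 and 300.2 to 588 at L6S1. Dcn was thus higher in all 6 L6S1 libraries, whereas the type I and III chains were high in 1 of them. The 9 markers without Dcn and Gsn summed to 64.7 CPM in female L6S1 C, with Lum at 39.5, and to 6.04 to 15.8 in the other 11 libraries. From none to 2 of the 11 fibroblast markers were at 0 in a library.

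**Figure D4:**
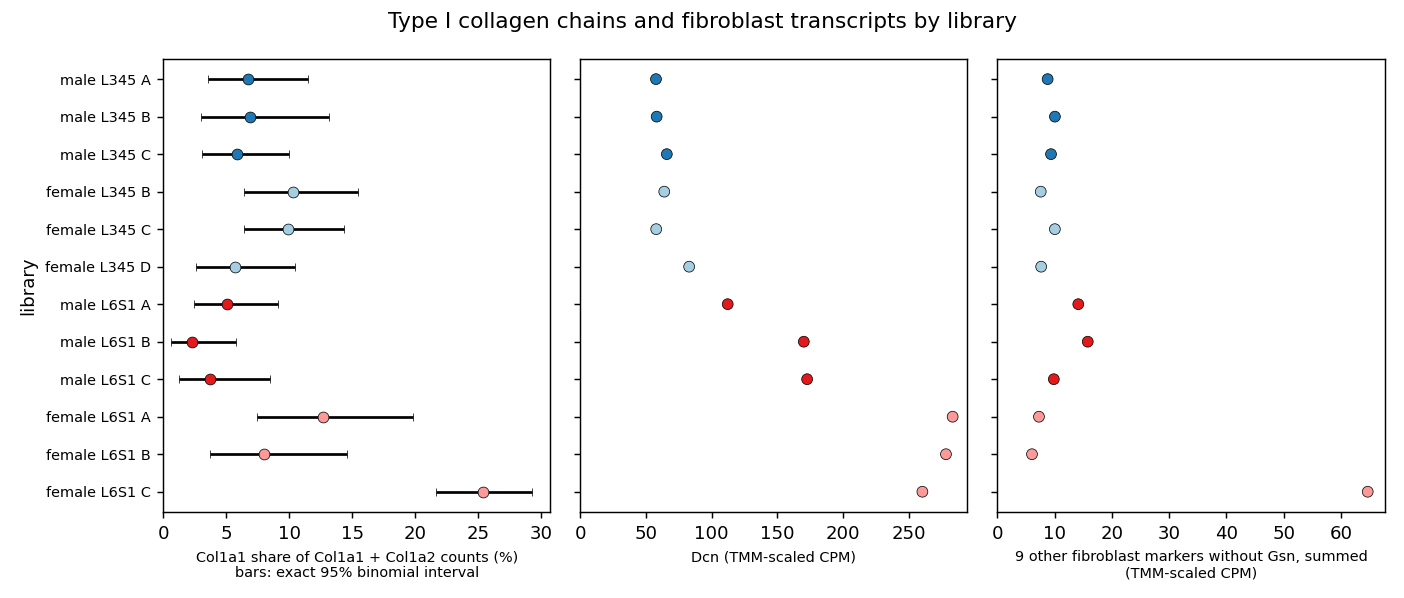
For each of the 12 libraries, the share of Col1a1 in the counts of Col1a1 and Col1a2 (percent, with exact 95% binomial intervals), the Dcn level (CPM) and the summed level of 9 other fibroblast markers (CPM). Female L6S1 C is apart in the outer panels, at 25.3% and 64.7 CPM, while Dcn is above 100 CPM in all 6 L6S1 libraries and below it in all 6 L345 libraries.

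Endothelial and immune markers also stood high in female L6S1 C. The summed endothelial markers reached 45.9 CPM there, above all other libraries, against 14.8 to 22.3 in the 6 L345 libraries. Of the other L6S1 libraries, female L6S1 B was below the L345 range at 11.3 CPM. The rest lay above that range, some only just, as male L6S1 C did at 22.4 CPM. The summed immune markers reached 189 CPM in female L6S1 C. They ran from 7.52 to 15.6 CPM in the other L6S1 libraries and from 4.30 to 5.31 at L345, so the levels did not overlap even without female L6S1 C. Mural markers as a list were not high there, with a sum of 258 CPM against 217 to 320 in the L345 libraries. Acta2 of smooth muscle, which is on that list, stood at 10.9 CPM. Immune markers had 2 of 5 tested called higher at L6S1, C1qb and Cd74, and all 5 lay above 0. Endothelial, mural and glial markers had 0 of 7, 0 of 7 and 0 of 14 called by edgeR. At an unadjusted p under 0.05 there were 2, 1 and 6 of them, against 26.6% of all genes. All 7 tested endothelial markers lay above 0, and 3 of 7 mural markers did. Of the 14 glial markers 11 lay below 0, with a median of -0.39 against -0.06 for all genes tested. Among the endothelial, mural and glial markers DESeq2 called Emcn, Tagln and Fabp7 higher. Limma-voom called Fabp7 and Pmp22 higher and Mbp and Kcnj10 lower. Nociceptor markers had 2 of 10 called higher, Tac1 and Trpv1, to which DESeq2 added Calca, and limma-voom added Calca higher and Scn10a and Scn11a lower. DESeq2 called C1qb and Csf1r among the immune markers. Over all genes the level calls were 2.33% in edgeR, 9.93% in DESeq2 and 21.4% in limma-voom. The part of these other cells in the collagen levels was not tested.

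Of the 6 type IV chains, which build the sheet of basement membranes, 4 were tested and none was called, with a class median of 0.23. Col4a1 ran from 2.53 to 3.71 CPM with a median of 3.27 at L345 and from 2.03 to 3.57 with a median of 2.96 at L6S1. These ranges overlapped nearly throughout (-0.10 ± 0.19 (SE), adjusted p = 0.755, edgeR). Col4a2, which joins the same helix, had 12.99% to 31.9% of the summed counts of both genes. The kidney and lung chains Col4a3 and Col4a4 were detected in every library at 16 to 70 and 4 to 29 counts, and Col4a5, their usual partner, had 0 to 9.

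Of the 6 type VI chains, which form beaded filaments around cells, 3 were tested and none was called. Col6a2 ran from 0.821 to 2.12 CPM at L345 and from 1.14 to 2.07 at L6S1, with a difference of 0.10 ± 0.26 (SE, adjusted p = 0.809, edgeR). Col6a4 and Col6a5 differed by 0.25 and 0.34. Col6a3, which has at most 7 counts in a library, was not tested.

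Of the 9 fibril-associated chains, 4 were tested and none was called, with a class median of -0.39. Col12a1 ran from 0.408 to 1.29 CPM with a median of 0.855 at L345 and from 0.188 to 1.05 with a median of 0.564 at L6S1. The 3 male L6S1 libraries lay at 0.188, 0.254 and 0.476, and the 3 female L6S1 libraries lay within the L345 range (-0.76 ± 0.34 (SE), adjusted p = 0.174, edgeR). Col19a1 ran from 0.0402 to 0.472 CPM at L345 and from 0.126 to 1.04 at L6S1, and 5 of 6 L6S1 libraries lay above the L345 mean of their sex (1.07 ± 0.55 (SE), adjusted p = 0.223, edgeR). It had at most 20 counts in a library. Col14a1 ran from 0.965 to 2.58 CPM at L345 and from 0.793 to 2.72 at L6S1 (-0.21 ± 0.31 (SE), adjusted p = 0.683, edgeR), and Col16a1 differed by -0.57 ± 0.35 (SE).

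Among the network-forming and anchoring chains 2 of 4 were tested. Col8a1, a chain known from vessel walls and the cornea, ran from 1.54 to 2.54 CPM at L345 and from 0.762 to 2.39 at L6S1 (-0.52 ± 0.24 (SE), adjusted p = 0.189, edgeR). Col10a1 ran from 0.603 to 1.95 CPM at L345 and from 0.545 to 2.32 at L6S1 (0.47 ± 0.32 (SE), adjusted p = 0.357, edgeR). Neither passed the test, and both overlapped between the levels. Of 8 cartilage and bone markers Bglap, Matn1 and Sp7 had no count in any library, and 1 of 3 tested rose, Cnmd, which encodes chondromodulin (0.90 ± 0.18 (SE), adjusted p = 0.0192, edgeR).

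Both tested transmembrane collagens lay below 0 and neither was called. Col23a1 ran from 4.20 to 6.29 CPM at L345 and from 2.78 to 5.45 at L6S1 (-0.26 ± 0.20 (SE), adjusted p = 0.414, edgeR). The multiplexins Col15a1 and Col18a1, basement membrane chains with interrupted helices, lay above 0. Col18a1 ran from 2.74 to 4.94 CPM with a median of 4.35 at L345 and from 3.34 to 6.16 with a median of 5.05 at L6S1 (0.29 ± 0.19 (SE), adjusted p = 0.335, edgeR). Col28a1 differed by -0.14 ± 0.17 (SE, adjusted p = 0.618, edgeR). Its lowest library, at 1.65 RPKM, lay above the highest library of any other member, 1.35 RPKM for Col1a2. This order holds with the annotated exon lengths, 12136 bases for Col1a2. Over the longest transcripts, 5348 bases for Col1a2 and 4230 bases for Col28a1, it does not hold. In CPM these libraries stood at 16.4 for Col1a2 (female L6S1 C) and 8.08 for Col28a1 (male L345 C).

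Within each sex the level effect was read from the same fit. No collagen gene was called in males, where 34 genes were called in all (0.222%), nor in females, where 55 were (0.36%). At an unadjusted p under 0.05 there were 4 members in males (8.83% of all genes), Col24a1, Col25a1, Col12a1 and Col8a1, all with lower values at L6S1. In females there were 3 (24.0% of all genes), Col24a1 and Col5a3 with lower values and Col1a1 with a higher one. DESeq2 called 0 members in males, where it called 0.713% of all genes, and 1 in females, Col24a1, where it called 4.91%. Limma-voom with quality weights called the 4 male members named above, against 12.2% of all genes, and 0 in females, against 0.34%.

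Between females and males, 9 genes were called in all (0.0589%) and no collagen gene, with 3 members at an unadjusted p under 0.05 (5.96% of all genes). DESeq2 and limma-voom also called 0. The lowest adjusted p of a member was 0.764, and belonged among others to Col1a1, at 1.83 ± 0.57 (SE, log2, female minus male), which stood at 0.93 without female L6S1 C. The test of whether the level effect differed between the sexes called 0 of 15281 genes in edgeR (0.0%), with 714 genes (4.67%) and 4 members at an unadjusted p under 0.05, and DESeq2 and limma-voom called 0 members.

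The member with the lowest unadjusted p in that test was Col25a1, a membrane-bound collagen of neurons known as the precursor of a component of amyloid plaques. It is named because of its values. In males it ran from 1.60 to 2.13 CPM at L345 and from 0.677 to 1.07 at L6S1, and in females from 1.35 to 1.49 at L345 and from 1.84 to 2.30 at L6S1. The male L6S1 libraries were all below and the female L6S1 libraries all above the L345 libraries of their sex. The share of all genes that separate in this way within a sex was not determined, so this separation is a description only. The difference between the sexes in the level effect was 1.76 ± 0.42 (SE), with an unadjusted p of 0.000779 that did not survive adjustment over all genes (adjusted p = 0.871, edgeR). Without female L6S1 A the adjusted p was 0.0336 (edgeR), in a fit that called 817 of 15683 genes (5.21%) and 1 of 27 collagen genes.

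Collagen chains need enzymes that hydroxylate, fold and export them, and 17 of 18 such genes were tested with none called (median -0.12). P4hb, the shared subunit of prolyl hydroxylase and a general folding enzyme, averaged 199.99 ± 42.5 CPM (SD, n = 12) and differed by -0.13 ± 0.19 (SE, adjusted p = 0.682, edgeR). It was at 79.6 CPM in female L6S1 B and at 185 to 240.1 in the other 11 libraries. Of 13 genes that trim procollagen or crosslink fibrils 8 were tested and none was called (median 0.09). Adamts3, which removes the amino end of procollagens, averaged 22.6 ± 5.71 CPM and differed by -0.40 ± 0.18 (SE, adjusted p = 0.177, edgeR). The crosslinking enzymes Lox, Loxl1 and Loxl2 were too low to test.

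Of 11 collagen receptors 8 were tested and none was called (median -0.32). Adgrg1, an adhesion receptor that binds type III collagen, averaged 226 ± 37.2 CPM, highest at 316 in female L6S1 C, with a difference of 0.06 ± 0.15 (SE, adjusted p = 0.817, edgeR). Of 15 laminins and other basement membrane partners 12 were tested, 10 lay below 0 and none was called (median -0.44). Lamb1, a laminin chain, ran from 22.9 to 38.9 CPM at L345 and from 16.2 to 25.6 at L6S1 (-0.50 ± 0.16 (SE), adjusted p = 0.0858, edgeR). Of 10 collagen-degrading enzymes and their inhibitors 6 were tested and none was called (median 0.19), and Timp2, the most abundant, averaged 169 ± 25.4 CPM (-0.14 ± 0.13 (SE), adjusted p = 0.490, edgeR). Across these 5 lists no gene was called between the levels by edgeR, and 13 of 51 tested had an unadjusted p under 0.05 (25.5%), against 26.6% of all genes. DESeq2, which called 9.93% of all genes by level, called Lamb1 lower and Ctsk and Timp1 higher among the 51. Limma-voom, which called 21.4% of all genes, called Lamb1, Mia3 and Pcolce2 lower and Ppib and Ctsk higher.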

How the data were processed

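RNA of sorted neurons was measured in 12 libraries, each made from 10 ng of RNA with a SMARTer low-input kit and 12 PCR cycles, as the labels state. Per the submitters' processing notes, Subread and featureCounts 1.4.5 were used on GRCm38.p2. The annotation release and strand setting were not given in the sources. For each gene the authors deposited whole-number counts, CPM and RPKM. The deposited CPM equals the count over the library's total, and the authors' RPKM is this value divided by the exon length of the table in kilobases. Only counts were tested. The labels give male L345 C as 5 mice in one field and 3 in another. Nothing beyond the pools marks replicates as separate cultures, so p-values measure the spread between pools.

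Symbols came from a GENCODE annotation of the same assembly (40254 genes, 97.3%). After TMM scaling and filterByExpr, counts of all 12 libraries were fitted in edgeR 4.0.16 (R 4.3.3) by the robust quasi-likelihood method with a mean for each group (8 residual degrees of freedom, common biological coefficient of variation 0.239). The level contrast is the mean of both L6S1 groups minus that of both L345 groups, and calls needed an adjusted p (Benjamini-Hochberg, over all 15281 genes tested) under 0.05. SEs were derived from the fold change and the F statistic. A count of 3 corresponded to 0.112 to 0.185 CPM, and intervals cover counting error only, since the reads carried no molecular identifiers. No library repeated another (chi-square per degree of freedom 10.6 to 140.1 within groups). The code was tested on simulated counts.

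The members and gene lists were chosen with earlier results of these data known. Named collagens were those called, the 12 highest by mean RPKM and the 4 highest and 4 lowest level fold changes, and in each other list the genes called or else the most abundant. Alternatives were DESeq2 1.42.0, limma-voom (limma 3.58.1) with quality weights, scaling by RLE or upper quartiles, no filter, at least 1 CPM in 6 libraries, a submission term, the first submission alone, a replicate block, offsets for GC content and length (4-df splines), these with the block, and libraries left out.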

Additional observations from a re-analysis of the deposited data

Results flagged for a closer look

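In 4 of 34 groups of 6 libraries examined, the highest library lay further from the others than 1 group in 20 does by chance, and each time it was female L6S1 C among the L6S1 libraries. Col1a1 stood at 5.57 CPM there against 0.169 to 0.976 in the other 5, and Col1a2 at 16.4 CPM against 4.52 to 7.46. Col3a1 stood at 8.51 CPM against 0.826 to 2.29, and Col5a2 at 3.85 CPM against 1.17 to 2.14. These genes share 1 library, so the values are not independent of each other.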

How the results depend on the processing

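Of 404 values for the 17 named collagen genes under the alternatives, 374 kept direction and call, and Col24a1 lost its call in 1, without female L345 C. With each library left out, Col24a1 ran from -1.88 to -1.49 (edgeR adjusted p 0.00377 to 0.0527). Over all genes the level calls numbered 545 with upper-quartile scaling, 1518 in DESeq2, 3268 in limma-voom, 841 with no filter, 125 with a submission term, 611 with offsets, 499 of 15971 (3.12%) in the first submission alone, 137 without female L6S1 B and C, and 80 to 4031 with 1 library left out, highest without female L6S1 A and lowest without female L345 B. Collagen calls by level numbered 2 of 27 in the first submission alone, where Col27a1 joined (-1.90, adjusted p 0.0385), and 0 to 1 with 1 library left out. The collagen median was -0.066 in limma-voom, -0.038 with the submission term, -0.042 with the filter of 1 CPM, -0.078 with no filter, -0.16 in the first submission alone, -0.16 without female L6S1 B and C, and -0.15 to 0.13 with 1 library left out. In males, limma-voom called 4 members, against 12.2% of all genes, and leaving out a library 0. In females, DESeq2 and no filter each called 1, against 4.91% and 0.96% of all genes. Leaving out a library called 0 to 2 in females, and 0 to 1 between sexes and for the interaction. Among the fits with 1 library left out, the calls beyond Col24a1 came only without female L6S1 A. They were Col1a1 in females (2.14) and between the sexes (2.00), and Col25a1 in the interaction. In these contrasts that fit called 3843 (24.5%), 991 (6.32%) and 817 (5.21%) of 15683 genes.

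Same-letter libraries of a sex correlated at 0.018 to 0.233 in their deviations, and different-letter libraries at -0.30 to 0.239. In males the same-letter values, 0.051 to 0.093, lay above all different-letter values, at most 0.034, but in females they did not. Since not all same-letter values were above 0.1, the main fit did not take the letters as pairs. These correlations do not settle whether the letters mark pairs. The same-letter pools held 2 mice at L345 and 5 at L6S1 for male B, 3 and 4 for female B, and 2 and 3 for female C. For male C, female B and female C the libraries of the levels came from different submissions. The block fit below takes the letters as pairs and carries this limit. The replicate block, with 3 residual degrees of freedom, called 5335 genes by level (34.9%), or 4550 with offsets (29.8%). It called 2 of 26 collagen genes by level, with Col12a1 (-0.98, adjusted p 0.0435, edgeR) beside Col24a1. With offsets it also called 2 of 26, with Col18a1 (0.78, adjusted p 0.0223, edgeR) beside Col24a1. In females it called 1 of 26, where it called 4843 genes (31.7%).

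Signs turned where differences were small. Col1a1 stood at -0.15 in limma-voom, -0.28 in the first submission and -0.21 without female L6S1 B and C, and Col1a2 at -0.059, -0.068 and -0.082. Col5a2 stood at 0.023 with upper-quartile scaling, 0.17 in limma-voom, 0.067 with the block, 0.088 with offsets and 0.26 with both. Col4a1 stood at 0.17 with offsets and 0.19 with offsets and block, Col14a1 at 0.10 with both, and Col6a2 at -0.054 with the submission term. With 1 library left out Col1a1 ran from -0.47 to 0.69, Col1a2 from -0.20 to 0.33, Col3a1 from -0.049 to 0.99, Col4a1 from -0.17 to 0.0072, Col5a2 from -0.26 to 0.080 and Col6a2 from -0.037 to 0.29. The cause was not tested. Depth limits the 18 untested genes, and differences under their counts were not detectable.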

Other observations

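Some genes that act on collagens were also high in female L6S1 C, and they are named because of their values. Their lists did not all go that way. The summed degrading enzymes and inhibitors were highest there, at 316 CPM against 191 to 280 at L345. The processing and crosslinking genes summed to 39.3 CPM, below the 49.2 to 70.1 at L345. The modifying and folding enzymes summed to 564 CPM, within the 539 to 605 at L345. Mmp13, an interstitial collagenase, had 4.86 CPM there and no count in the other 11 libraries. Ctsk, a collagen-cleaving protease of osteoclasts, stood at 14.7 CPM against 2.09 to 6.21, and Pcolce, which enhances the trimming of procollagen, at 10.4 CPM against 0.975 to 3.37. Timp1, an inhibitor of collagenases, stood at 7.79 CPM against 0.661 to 2.38, and Serpinh1, the collagen chaperone, at 28.5 CPM against 7.56 to 17.7. The collagen receptor Itga1 was lowest there, at 0.0838 CPM, against 0.188 to 1.56 in the other libraries. That value lies under the level of 3 counts in female L6S1 C, 0.121 CPM.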
